A study of Mus musculus with 2 samples.

Results

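The lysosomal genes described here are 56 of the 49315 genes in the deposited table. They are 31 hydrolases, cofactors and membrane proteins listed by symbol and 25 genes whose symbols begin with Atp6v0, Atp6v1 or Atp6ap, the subunits of the vacuolar proton pump, with pseudogenes left out. The rule itself uses no measured value. RNA came from cells labelled as macrophages of the mouse dorsal root ganglion, and 2 libraries were sequenced. The normoxia library is from mice kept at 21% oxygen in hypoxia chambers with a sham exposure. The intermittent hypoxia library is from mice whose chambers cycled between 21% and 8% oxygen, with a cycle of 6 min and 10 cycles per hour, for 8 h daily on 14 consecutive days. The experiments followed the final exposure by about 18 h. The sources used here do not give the strain, sex or age of the mice, how many were pooled or how the cells were isolated. The hypoxia column was recognised by the initial C of its code, since its number matches no label. With 1 library per group nothing measures the spread between animals, so no p-value is given and every interval covers counting error only.

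Lysosomes are acidic compartments in which cells break down proteins, glycans and lipids. The hydrolases are made in the endoplasmic reticulum and delivered as soluble enzymes, the membrane proteins line and protect the compartment and move its products out, and the V-ATPase pumps protons inward to hold the low pH that most of the enzymes need. Macrophages are rich in all of these, since they degrade what they engulf, and Cd68 and cathepsin genes are commonly used to mark them. Neutrophils also carry lysosomal enzymes in their granules.

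Many lysosomal genes are known to be controlled by the MiT/TFE transcription factors, which bind E-box sites with the core CACGTG. To show what these genes share apart from their function, their promoters were read from RefSeq (GRCm38.p6), in windows of 250 bases before to 50 bases after each annotated start. Of the 56 genes, 44 had a window. The motif TCACGTG, searched on both strands and overlapping the core CACGTG, lay in a window of 11 of these 44 genes (25%), against 4.29% of all 27025 genes in the table. The core alone lay in 12 (27.3%, against 8.09%), and the related motif TCATGTG, on both strands, in 7 (15.9%, against 4.31%). By role, 6 of 17 hydrolase genes, 0 of 3 cofactor genes, 1 of 6 membrane protein genes and 4 of 18 pump genes held TCACGTG. The stretches printed here come from 5 protease, membrane protein and pump genes, chosen to show lone and repeated sites close to a start, each 5′ to 3′ on the gene's own strand, with the core and a flanking T before it or A after it in capitals.
Ctsd, chr7:142387895-142387950, minus strand: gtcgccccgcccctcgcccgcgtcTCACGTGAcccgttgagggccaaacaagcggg
Ctsa, chr2:164833736-164833772, plus strand: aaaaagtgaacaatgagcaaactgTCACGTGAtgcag
Lamp1, chr8:13159075-13159160, plus strand: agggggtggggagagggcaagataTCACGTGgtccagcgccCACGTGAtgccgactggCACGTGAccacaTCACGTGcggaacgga
Atp6v0b, chr4:117887330-117887390, minus strand: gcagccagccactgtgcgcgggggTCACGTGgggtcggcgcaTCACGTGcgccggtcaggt
Atp6v1a, chr16:44139360-44139415, minus strand: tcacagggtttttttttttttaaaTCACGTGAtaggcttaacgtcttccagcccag
The Lamp1 stretch holds 4 such sites within 62 bases before the start, and that of Atp6v0b holds 2. Ctsd has a further site of this kind, not printed, 245 bases before its start. A match is a description of these letters and not a measured binding site. Genes with TCACGTG were found among those counted in both libraries (5 of 16 with a window), in normoxia alone (4 of 18) and in neither (2 of 9).

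Total counts were 2171348 for normoxia and 145056 for hypoxia, which is 15.0 times fewer, so raw counts of the libraries cannot be set side by side without scaling. Counts also came in blocks. Genes with 10 or more counts that only 1 library detected had a median of 229 counts in normoxia and 39 in hypoxia, and if such genes mostly stem from 1 starting molecule, the libraries hold about 9482 and 3719 molecules. That assumption was not tested. Some detected genes come to less than 1 molecule on this estimate, such as Grn in hypoxia (0.205). The estimate is therefore a rough scale and not a count of molecules for a single gene. Intervals below are given on reads and, where named, on these estimated molecules, which are the wider and more cautious of the pair. Ratios are hypoxia over normoxia. Those of single genes use TMM scaling (trimmed mean of M values), which multiplies every ratio on total counts by 0.573, a shift of −0.80 on the log2 scale. TMM, like DESeq2 size factors, is set by genes counted in both libraries. The median log2 ratio of these 1158 genes was −0.05 with TMM and 0.75 on total counts. A gene low in normoxia is among them only when hypoxia detects it, which gives it a high ratio. How far this lowered the TMM ratios was not tested. The groups of genes are compared by their share of total counts, with the TMM ratio beside it.

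The label was checked against cell markers. Of 14 macrophage markers 12 were counted in normoxia and 3 in hypoxia. Adgre1, Csf1r, Cd163, Mrc1, Mertk, Fcgr1, Aif1, Cd68, C1qa, C1qb and C1qc were at 0 in hypoxia, with Mertk and Aif1 at 0 in normoxia as well. Of the 12 counted in normoxia 25% were thus counted in hypoxia, as were 25% of all 4640 genes counted in normoxia. Cd68 is also among the lysosomal genes. The list's summed share was 2.65% in normoxia against 2.36%, led by Lyz2 (34028 and 3164 counts), which neutrophils also express, and Apoe (12776 and 249). Without Lyz2 it was 1.08% against 0.176%. Of 12 neutrophil markers 9 were counted in normoxia and 10 in hypoxia, with a summed share of 1.81% against 10.3%, led by S100a9 (11656 and 4197) and S100a8 (10004 and 3561). Ly6g, Cxcr2 and Csf3r were at 0 in normoxia, and Mmp8 and Mmp9 at 0 in hypoxia. Monocyte markers, led by Chil3 (3223 and 443) and Plac8 (2824 and 275), took 0.613% against 0.609%, and red cell markers, led by Hbb-bs (88388 and 5121) and Hba-a1 (77183 and 4826), 10.1% against 7.99%. Markers of other ganglion and blood cells rested on few counts. Satellite glia markers had 312 counts in normoxia and 127 in hypoxia (Glul 129 and 85, Sparc 183 and 42), Schwann cell markers 1 and 63, and sensory neuron markers 0 and 60, all of Isl1. Fibroblast markers had 1049 and 0 counts and B cell markers 1539 and 86. T and NK cell markers had 350 and 0, dendritic cell markers 313 and 0, azurophil granule markers 635 and 33, and osteoclast markers 74 and 38. Endothelial markers had 0 in both. On reads, the shares of macrophage genes without Lyz2 and of neutrophil and red cell markers differed between libraries beside the lysosomal genes. So did those of satellite glia, Schwann cell, sensory neuron, fibroblast, T and NK cell, dendritic cell and osteoclast markers. The share of monocyte markers was nearly equal. On estimated molecules the intervals of the neutrophil ratio (4.74 to 6.85) and the red cell ratio (0.695 to 0.906) excluded 1. Those of the satellite glia ratio (0.622 to 141) and the fibroblast ratio (0 to 3.15) included 1. The intervals of Schwann cell, sensory neuron, T and NK cell, dendritic cell and osteoclast markers did too. No such interval is given for macrophage genes without Lyz2. The part of these marker shares in the lysosomal differences was not tested.

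Lysosomal genes made up 2.42% of all normoxia counts (95% interval 2.40 to 2.44, exact binomial) against 1.13% of hypoxia counts (1.07 to 1.18). The ratio of the shares was 0.465 (0.443 to 0.489 on reads, 0.326 to 0.649 on estimated molecules), or 0.267 with TMM, 0.277 with DESeq2 size factors and 0.484 when scaled to 15 housekeeping genes, of which 9 were counted in hypoxia. Housekeeping scaling depended on its list: without Actb, the ratio was 0.762. The share was lower in the hypoxia library under each of these scalings. Of the 56 genes, normoxia counted 40 and hypoxia 21; 19 appeared in both and 14 in neither. The lysosomal counts of the hypoxia library come to about 41.9 estimated molecules in all, against 230 in normoxia. As this is bulk RNA, fewer cells of a type and less RNA per cell cannot be told apart.

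**Figure D1:**
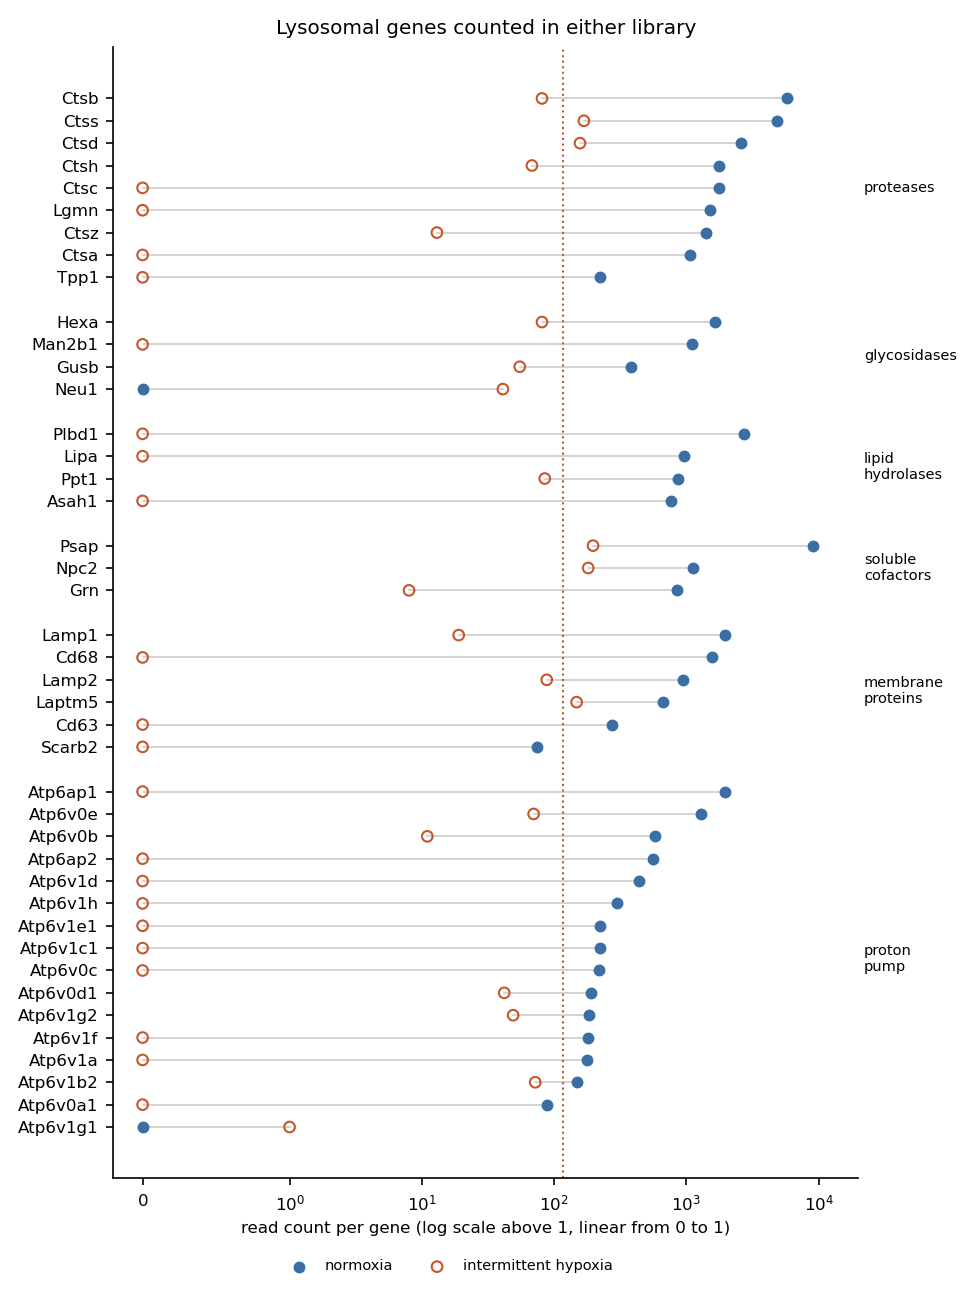
Read counts (x axis, log scale above 1 and linear below) of the 42 lysosomal genes counted in either library, by role, with filled points for normoxia, open points for intermittent hypoxia and no scaling for the 15.0-fold difference in depth. The dotted line marks 117 reads, about 3 estimated molecules in hypoxia, and only 5 open points, those of Psap, Npc2, Ctss, Ctsd and Laptm5, lie to its right.

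A gene was called lower or higher when its TMM ratio was at least 2-fold from 1 and its interval on reads excluded 1, among genes with at least 50 counts over both libraries. Of the 40 lysosomal genes that passed this minimum, 31 (77.5%) were lower, 2 (5%) higher and 7 neither. Of all 4215 genes that passed it, 75.7% were lower and 11.9% higher, so the share of lower lysosomal genes is near that of genes in general. Of the 31 lower genes, 21 had 0 counts in hypoxia. The median log2 ratio was −4.24 over the lysosomal genes and −5.25 over all genes tested. Over genes counted in both libraries the order was the other way round, with −1.09 for the 19 lysosomal genes and −0.05 for all 1158 such genes. TMM is set by genes counted in both libraries, so the median of all such genes is near 0 by the scaling. A gene low in normoxia enters this comparison of medians only when hypoxia detects it, which gives it a high ratio. At least 500 normoxia counts were held by 15 of the 19 genes and by 503 of the 1158. These medians were thus not matched for abundance, and their order says nothing particular to lysosomal genes.

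With intervals on estimated molecules, 6 lysosomal genes (15%) were lower and 0 higher, against 1.3% and 0.19% of all genes tested. These 6 were Psap, Ctsb, Ctss, Plbd1, Atp6ap1 and Ctsc. All 55 lower genes of the table under this rule, these 6 included, had at least 1000 counts in normoxia. Among genes of that abundance 6 of 17 lysosomal genes (35.3%) were lower, against 14.9% of all 369 such genes. Genes enter this comparison by a high normoxia count, which itself favours a lower call. They were not matched for abundance above 1000 counts, where Psap had 9005 and Ctsb 5770. The contrast therefore says nothing particular to lysosomal genes. On total counts in place of TMM, 3 of the 6 met the rule, namely Psap, Ctsb and Plbd1. No share over all genes is given for that setting.

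Detection in hypoxia followed abundance. Of the 40 lysosomal genes counted in normoxia, 47.5% were also counted in hypoxia, against 25% of all 4640 genes counted in normoxia. Among genes with at least 500 counts in normoxia it was 15 of 25 lysosomal genes (60%) against 51.5% of all genes. The 19 genes counted in both had a median of 1120 counts in normoxia, and the 21 genes counted in normoxia alone had a median of 440. In hypoxia the 19 had 8 to 197 counts, with a median of 72, about 1.85 estimated molecules, and 14 of them held 3 estimated molecules or fewer.

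**Figure D2:**
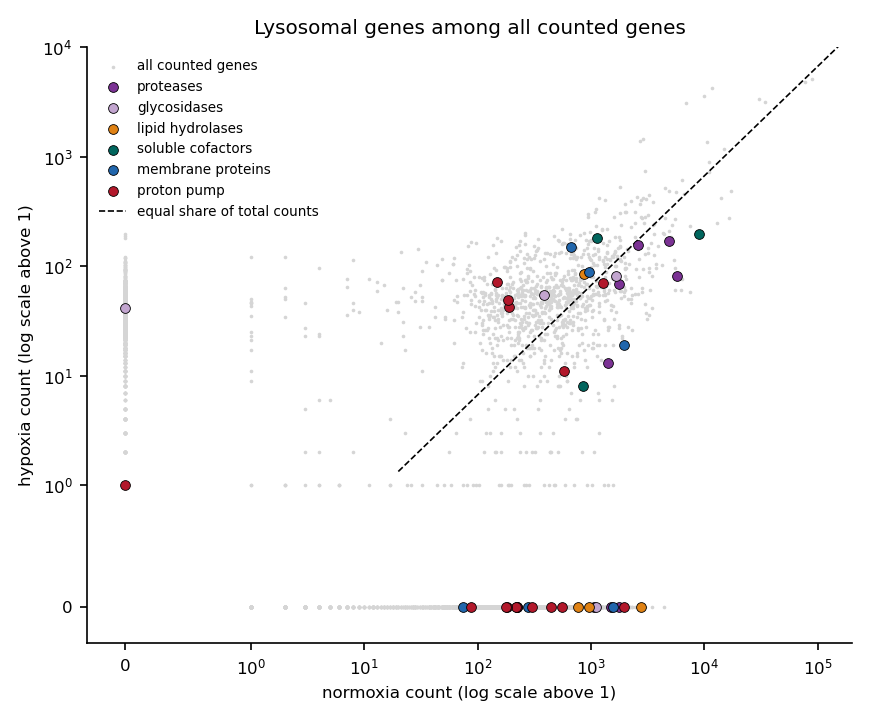
Counts of each gene in normoxia (x axis) and hypoxia (y axis), both on log scales above 1, with all counted genes in grey, lysosomal genes coloured by role and a dashed line where a gene takes the same share of both libraries. The 21 lysosomal genes counted in normoxia alone lie along the bottom, and those counted in both lie on either side of the line.

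Proteases, which cut proteins inside the lysosome, made up 0.964% of normoxia counts (0.951 to 0.977) against 0.336% of hypoxia counts (0.307 to 0.367). The ratio was 0.348 (0.318 to 0.381 on reads, 0.176 to 0.632 on molecules), or 0.200 with TMM. Of 9 measured proteases 8 were lower and Ctsd was neither, where 75.7% of all genes tested were lower. The cysteine protease gene Ctsb (ENSMUSG00000021939, chromosome 14, 63122462 to 63145923 on GRCm38, by GENCODE M21, as are the gene positions below) was counted 5770 times in normoxia and 81 times in hypoxia. Its ratio was 0.120 (0.0955 to 0.150 on reads, 0.0146 to 0.473 on molecules). Ctss, the cathepsin that trims the invariant chain of MHC class II in antigen-presenting cells (ENSMUSG00000038642, chromosome 3, 95526786 to 95556403), had 4825 and 168 counts. Its ratio was 0.299 (0.255 to 0.348 on reads, 0.0791 to 0.859 on molecules), and on total counts it was 0.521, short of 2-fold. It had the highest TPM (abundance per transcript length) of all 56 genes in each library, 2994 in normoxia and 1198 in hypoxia.

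The aspartic protease gene Ctsd had 2589 and 157 counts, for a ratio of 0.520 (0.440 to 0.611), or 0.908 on total counts. In GENCODE M21, 34.4% of its exonic bases are shared with the overlapping gene Gm49369, which had 0 counts in both libraries. The aminopeptidase gene Ctsh had 1763 and 68 counts, for a ratio of 0.331 (0.256 to 0.422), or 0.577 on total counts, where it was neither, and the carboxypeptidase gene Ctsz had 1418 and 13, for a ratio of 0.0786. The remaining 4 proteases counted in normoxia had 0 counts in hypoxia. Ctsc, which activates the granule serine proteases of neutrophils and other leukocytes, had 1762 counts in normoxia and was at least 68.5-fold lower with a count of 0 taken as 3 reads. Lgmn, the asparaginyl endopeptidase that processes other cathepsins, had 1511 counts (at least 58.7-fold lower). Ctsa, a carboxypeptidase that also protects beta-galactosidase and neuraminidase, had 1067 (at least 41.5-fold), and the tripeptidyl peptidase gene Tpp1 had 223 (at least 8.67-fold). These limits cover read counting only. With 0 taken as 3 estimated molecules, which is 807 CPM (counts scaled to the library total) in hypoxia, only Ctsc (811 CPM in normoxia) among these 4 exceeds the limit on total counts. Ctsl, a cysteine protease, had 0 counts in both libraries.

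Within the proteases, Ctss made up 34.5% of counts in hypoxia, against 23.1% in normoxia. Ctsb, which led in normoxia with 27.6%, made up 16.6% in hypoxia. Protease counts in hypoxia come to about 12.5 estimated molecules, with 4.31 of Ctss and 2.08 of Ctsb. A shift in these shares was therefore not resolved at this depth.

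Glycosidases, which remove sugars from glycans and glycolipids, took 0.145% of counts in normoxia and 0.122% in hypoxia, for a ratio of 0.842 (0.720 to 0.980 on reads, 0.222 to 2.57 on molecules), or 0.483 with TMM. Of 3 measured glycosidases 2 were lower, beside 75.7% of all genes tested. Hexa, the alpha subunit of beta-hexosaminidase, had 1650 and 81 counts, for a ratio of 0.421 (0.333 to 0.526), or 0.735 on total counts, where it was neither. The alpha-mannosidase gene Man2b1 had 1111 and 0 (at least 43.2-fold lower by reads, with an upper limit of 1.66 on molecules). The beta-glucuronidase gene Gusb had 384 and 55, for a ratio of 1.23 (0.909 to 1.63), or 2.14 on total counts. The sialidase gene Neu1 was counted in hypoxia alone, with 41 counts, about 1.05 estimated molecules, and was below the minimum for a call. The beta-galactosidase gene Glb1 and the acid alpha-glucosidase gene Gaa had 0 counts in both libraries.

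Lipid hydrolases took 0.245% and 0.0586% of counts, for a ratio of 0.239 (0.191 to 0.296 on reads, 0.0310 to 0.923 on molecules), or 0.137 with TMM. Of 4 measured genes 3 were lower, each with 0 counts in hypoxia, beside 75.7% lower among all genes tested. Plbd1, a phospholipase B-like protein (ENSMUSG00000030214, chromosome 6, 136612070 to 136661928), had 2735 counts in normoxia, the most of any lysosomal gene with 0 in hypoxia. It was at least 106-fold lower by reads, with an upper limit of 0.529 for its ratio on estimated molecules. The acid lipase gene Lipa, which frees cholesterol from its esters, had 952 counts and the acid ceramidase gene Asah1 had 767 (at least 37.0-fold and 29.8-fold lower by reads). Their upper limits on molecules were 2.09 and 2.93, so these 2 calls held on reads only. Ppt1, which removes palmitate from proteins, had 871 and 85 counts, and its ratio was 0.837 (0.662 to 1.05) with TMM and 1.46 on total counts, so its direction turns with the scaling. Plbd2, a relative of Plbd1, had 0 counts in both.

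The soluble cofactors have no hydrolase activity of their own. They took 0.506% of counts in normoxia and 0.266% in hypoxia, for a ratio of 0.526 (0.474 to 0.583 on reads, 0.236 to 1.06 on molecules), or 0.302 with TMM. Psap, the precursor of the saposins that present sphingolipids to their hydrolases (ENSMUSG00000004207, chromosome 10, 60277627 to 60302597), had 9005 and 197 counts, the most of any lysosomal gene in each library. Its ratio was 0.188 (0.162 to 0.216 on reads, 0.0582 to 0.474 on molecules). The progranulin gene Grn had 852 and 8 counts, for a ratio of 0.0805. Npc2, which hands cholesterol to Npc1 at the lysosomal membrane, lay above 1, since its counts of 1120 and 181 gave a ratio of 1.39 (1.18 to 1.62 on reads, 0.303 to 6.23 on molecules). Psap held 82.0% of the cofactor counts in normoxia and 51.0% in hypoxia, where the group came to about 9.90 estimated molecules. Without Psap the ratio was 1.43 on total counts and 0.822 with TMM, so its side of 1 turned with the scaling.

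**Figure D3:**
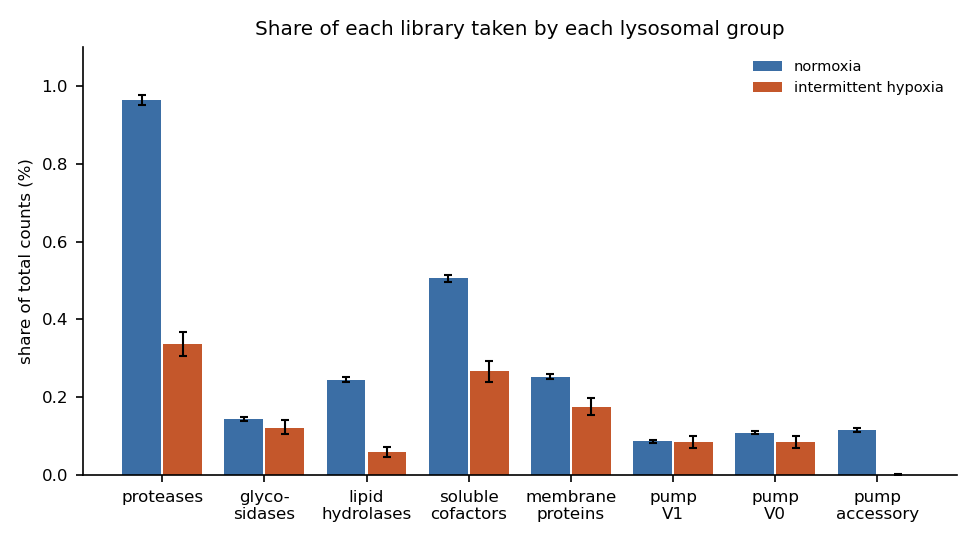
Share of total counts (y axis, percent) taken by each group of lysosomal genes in normoxia and in intermittent hypoxia, with exact 95% binomial intervals on reads as error bars. Proteases show the widest gap, 0.964% against 0.336%, while the bars of the V1 pump sector, 0.0864% and 0.0841%, have overlapping intervals.

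Membrane proteins made up 0.253% of normoxia counts (0.246 to 0.260) against 0.176% of hypoxia counts (0.155 to 0.199), for a ratio of 0.695 (0.611 to 0.788 on reads, 0.244 to 1.70 on molecules), or 0.398 with TMM and 1.14 with housekeeping scaling without Actb. Of 6 measured genes 4 were lower and 2 neither, beside 75.7% lower among all genes tested. Lamp1, an abundant glycoprotein of the lysosomal membrane (ENSMUSG00000031447, chromosome 8, 13159161 to 13175338), whose promoter stretch with 4 sites is printed above, was counted 1962 times in normoxia and 19 times in hypoxia. Its ratio was 0.0831 (0.0499 to 0.130 on reads), with an upper limit of 1.02 on molecules. Its relative Lamp2, also needed for autophagy, had 951 and 88 counts, and its ratio was 0.794 (0.631 to 0.988) with TMM but 1.39 on total counts and 1.44 with housekeeping scaling. Lamp1 thus had more counts than Lamp2 in normoxia and fewer in hypoxia, where they came to 0.487 and 2.26 estimated molecules.

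Cd68, the macrophage glycoprotein related to the Lamp family (ENSMUSG00000018774, chromosome 11, 69664213 to 69666153), was counted 1565 times in normoxia and 0 times in hypoxia, at least 60.8-fold lower by reads, with an upper limit of 1.05 on molecules. The tetraspanin gene Cd63 had 275 and 0. Scarb2, the receptor that carries glucocerebrosidase to the lysosome, had 74 and 0. Laptm5, a membrane protein of leukocyte lysosomes (ENSMUSG00000028581, chromosome 4, 130913125 to 130936141), had 665 and 148 counts. Its ratio was 1.91 (1.59 to 2.28 on reads, 0.307 to 13.7 on molecules) with TMM and 3.33 on total counts. It made up 58.0% of membrane protein counts in hypoxia, which come to about 6.54 estimated molecules, and 12.1% in normoxia. Without Lamp1, which had the most counts of the group, the ratio was 1.00 on total counts and 0.573 with TMM. The cholesterol transporter gene Npc1 had 0 counts in both libraries.

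The proton pump genes made up 0.310% of normoxia counts (0.303 to 0.318) against 0.169% of hypoxia counts (0.148 to 0.191), for a ratio of 0.544 (0.477 to 0.618 on reads, 0.190 to 1.31 on molecules), or 0.312 with TMM. The pump has a cytosolic sector, V1, that splits ATP, and a membrane sector, V0, that carries the protons. Of 15 measured pump genes 12 were lower (10 had 0 hypoxia counts), 2 were higher and 1 neither. Of all genes tested, 75.7% were lower and 11.9% higher. In normoxia each of the 8 kinds of V1 subunit and each of the 5 kinds of V0 subunit had counts from at least 1 isoform. In hypoxia it was 2 of 8 and 3 of 5. Of the 15 pump genes counted in normoxia 5 were counted in hypoxia, and of all 4640 genes counted in normoxia 25% were. The higher genes, Atp6v1b2 and Atp6v1g2, and Atp6v0d1, which was neither, had 42 to 72 counts there, or 1.08 to 1.85 estimated molecules. In normoxia these genes had 148 to 189 counts, or 0.646 to 0.825 estimated molecules. A gene this low in normoxia has a ratio above 1 once about 39 hypoxia counts detect it. On estimated molecules 0 pump genes were higher.

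**Figure D4:**
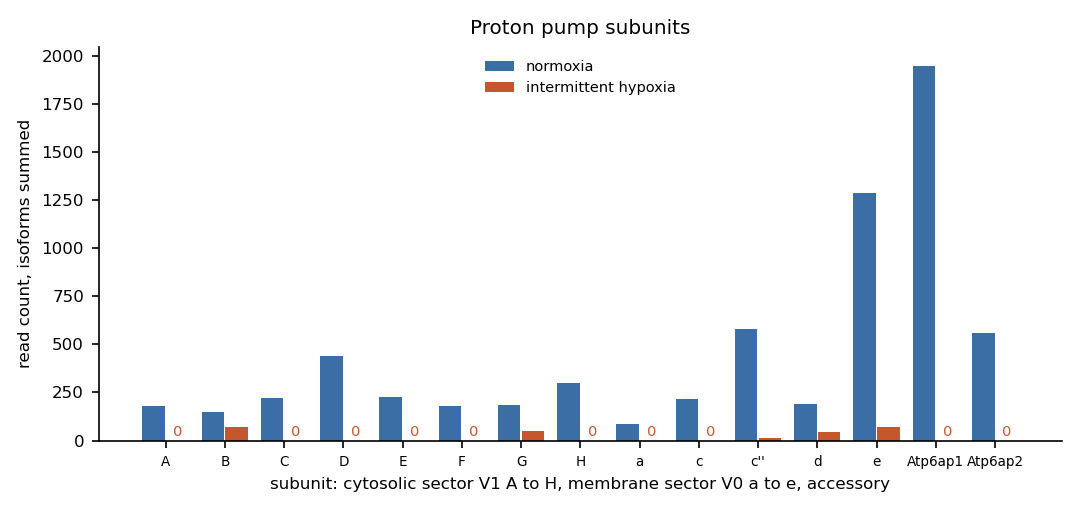
Read counts (y axis, linear) of each kind of proton pump subunit counted in normoxia, isoforms summed, in normoxia and in intermittent hypoxia, with a 0 printed where hypoxia had none and no scaling for depth. The sums hold only genes of the symbol rule, so the a subunit leaves out Tcirg1. All 13 kinds of V1 and V0 subunit have a normoxia bar and 5 (B, G, c″, d and e) have counts in hypoxia.

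In the V1 sector, Atp6v1b2, the B subunit isoform found in most cells (ENSMUSG00000006273, chromosome 8, 69088646 to 69113711), had 148 and 72 counts. Its ratio was 4.17 (3.10 to 5.57 on reads, 0.149 to 1385 on molecules). Of the G subunit genes, Atp6v1g2, an isoform known mainly from neurons, had 184 and 49 counts, for a ratio of 2.28 (1.63 to 3.15 on reads), whereas Atp6v1g1, the isoform found in most cells, had 0 and 1. Of its exonic bases, Atp6v1g2 shares 5.74% with Nfkbil1 on the opposite strand, which had 0 counts in both. The catalytic subunit gene Atp6v1a had 178 and 0 counts. The other V1 genes with 0 in hypoxia were Atp6v1d (440 counts in normoxia), Atp6v1h (299), Atp6v1e1 (224), Atp6v1c1 (222) and Atp6v1f (182). As a sector, V1 took 0.0864% and 0.0841% of counts, for a ratio of 0.973 (0.803 to 1.17 on reads), or 0.557 with TMM. The isoform genes Atp6v1b1, Atp6v1c2, Atp6v1e2 and Atp6v1g3, known mainly from kidney, testis and other specialised tissues, had 0 counts in both.

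In the V0 sector, the small e subunit gene Atp6v0e had 1286 and 70 counts, for a ratio of 0.467 (0.362 to 0.594), or 0.815 on total counts, where it was neither. Atp6v0b, a proteolipid of the rotor ring, had 579 and 11, for a ratio of 0.163 (0.0809 to 0.294). The main rotor ring gene Atp6v0c had 218 and 0, and Atp6v0a1, an a subunit that spans the membrane, had 88 and 0. The d subunit gene Atp6v0d1 had 189 and 42, for a ratio of 1.91 (1.33 to 2.67 on reads), or 3.33 on total counts. Its isoform Atp6v0d2, known from osteoclasts, had 0 in both, as had Atp6v0a2, Atp6v0a4 and Atp6v0e2. Tcirg1, which encodes another a subunit and lies outside the symbol rule, had 500 and 0 counts. V0 genes of the symbol rule, thus without Tcirg1, took 0.109% and 0.0848% of counts, for a ratio of 0.780 (0.645 to 0.935 on reads), or 0.447 with TMM.

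The accessory genes had 0 counts in hypoxia. Atp6ap1, the pump gene with most counts in normoxia, which encodes an assembly and targeting factor of the pump (ENSMUSG00000019087, chromosome X, 74297097 to 74304721), had 1947 and 0 counts, at least 75.7-fold lower by reads, with an upper limit of 0.793 on molecules. Atp6ap2, the prorenin receptor, had 558 and 0 (at least 21.7-fold by reads, with an upper limit of 5.18 on molecules). Atp6ap1l, a relative of Atp6ap1, had 0 in both. Without Atp6ap1 the ratio of the pump's share was 0.765, or 0.438 with TMM.

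**Figure D5:**
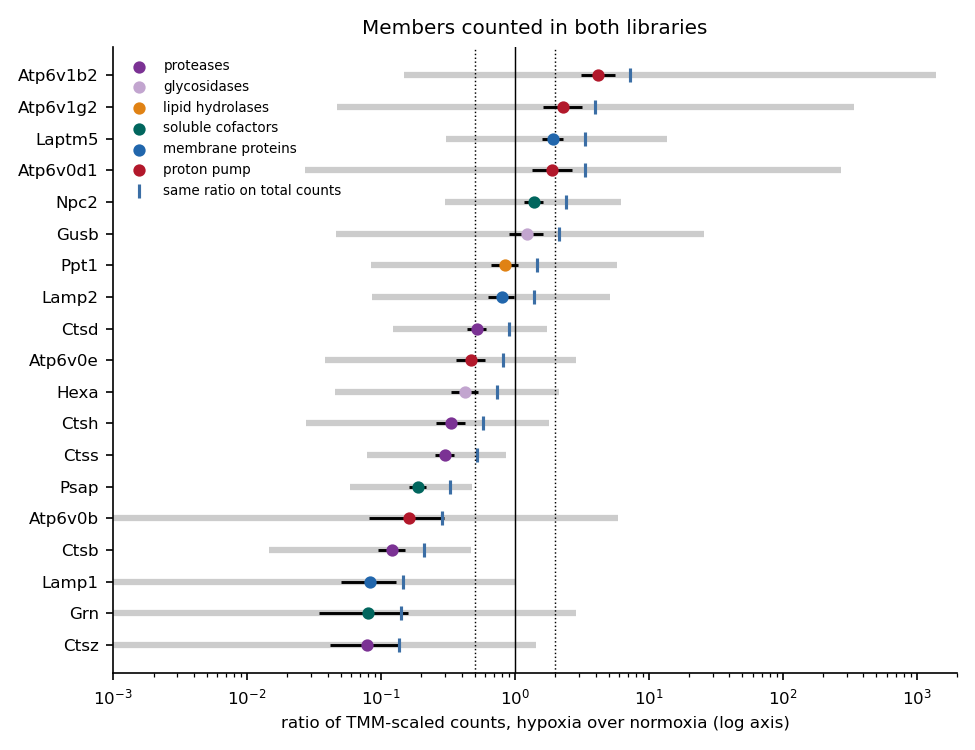
Ratio of TMM-scaled counts, hypoxia over normoxia (log x axis), of the 19 lysosomal genes counted in both libraries, with black lines for exact 95% intervals on reads, grey bars for intervals on estimated molecules (bars that leave the axis on the left run on) and blue ticks for the same ratio on total counts. The grey bars of Psap, Ctsb and Ctss lie below 1, and those of the other 16 genes include 1.

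Some of these genes share exonic bases with neighbours, and without a known strand setting their reads could not be told apart. Ppt1 shares 3.51% with Cap1 (1557 and 19 counts) and Ctsa 10.5% with Pltp (0 and 71). Ctsb shares 12.8% with Fdft1, which had 0 counts in both.

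Among the 19 genes counted in both libraries, 11 had a ratio below 1 and 6 a ratio above 1 with TMM, total counts, DESeq2 size factors and housekeeping scaling. Within a scaling all ratios are multiplied by 1 factor, so agreement between scalings is no separate support for a direction. With Actb left out of the housekeeping list, 8 of the 11 stayed below 1, and Ctsd, Hexa and Atp6v0e did not. The 6 were Gusb, Npc2, Laptm5, Atp6v0d1, Atp6v1g2 and Atp6v1b2, whose intervals on estimated molecules all include 1. The other two, Ppt1 and Lamp2, turned with the scaling.

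Set against each other within a library, where scaling cancels, the pump genes had 22.9 counts per 100 hydrolase counts in normoxia and 32.7 in hypoxia. The ratio of these was 1.43 (1.23 to 1.65 on reads, 0.532 to 3.82 on molecules, by the normal approximation on the log scale). Membrane proteins had 18.7 and 34.0 counts per 100 hydrolase counts, for a ratio of 1.82 (1.58 to 2.11 on reads, 0.678 to 4.90 on molecules). The hydrolases as a whole took 1.35% and 0.516% of counts, for a ratio of 0.381 (0.354 to 0.410 on reads, 0.223 to 0.619 on molecules). By summed TPM the pump had 22.2 and 26.4 per 100 of hydrolases, but the membrane proteins 22.3 and 17.4, a ratio of 0.779, so their direction turned with the unit. On estimated molecules a difference between hydrolases, membrane proteins and pump was not detectable.

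By TPM, the order of the leading genes differed between libraries. In normoxia Ctss (2994) was followed by Psap (2765), Cd68 (1049), Ctsb (1026), Ctsd (928) and Plbd1 (875). In hypoxia Ctss (1198) was followed by Psap (695), Ctsd (646), Npc2 (537), Hexa (393) and Laptm5 (378). In the hypoxia order Psap and Ctsd rest on 5.05 and 4.03 estimated molecules, so their order was not resolved at this depth.

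The wider pathway was taken from lists chosen by function. Of 16 measured other hydrolases, 11 were lower, 1 higher and 4 neither. The aspartic protease gene Ctse had 2237 and 63 counts, the ganglioside activator gene Gm2a 1185 and 0, and the amidase gene Naaa 769 and 58. Of 11 measured other membrane proteins and transporters, 7 were lower, 1 higher and 3 neither, with Laptm4a at 892 and 84, Sidt2 at 702 and 0, and Cd164 at 222 and 41. Of 10 measured sorting genes, 8 were lower, 1 higher and 1 neither. The mannose 6-phosphate receptor gene M6pr, which brings new enzymes to the lysosome, had 1574 and 0 counts, the late endosome GTPase gene Rab7 989 and 0, the retromer gene Vps35 772 and 67, and the adaptor gene Ap1m1 505 and 0. All 4 measured genes of transcriptional and nutrient control were lower with 0 counts in hypoxia, namely Ywhab (1520), Tfe3 (258), Rraga (194) and Fnip1 (169). Of 4 measured protease inhibitors 3 were lower, with cystatin C, Cst3, at 3252 and 97, Serpinb1a at 528 and 59, Gm5483 at 339 and 0, and Serpinb6a at 246 and 0. The 3 higher genes of these lists, named after their values were seen, were Acp5 (74 and 38 counts), Mfsd1 (85 and 59) and Sort1 (22 and 63). Shares of lower genes in these lists lie on either side of the 75.7% of all genes.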

How the data were processed

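Both libraries have raw counts of reads per gene and TPM values, as deposited by the authors. The submitters' processing notes name STAR 2.5.2b, Subread 1.5.2 with featureCounts, and bcl2fastq 2.20. The sources used here do not give the build, annotation, strand setting or duplicate removal. TPM per count differed between the libraries by 11.49-fold in each of 559 genes checked, so it adds no separate measurement, and TPM served to compare levels between genes and, as an alternative, to weight genes by length in sums. Counts were scaled by TMM (edgeR 4.0.16, R 4.3.3), with total counts, DESeq2 1.42.0 size factors and 15 housekeeping genes as alternatives. Intervals are exact conditional binomial at 95% (scipy 1.17.1). Log2 ratios used a prior count of 0.5. Rules were tested on simulated data only with reads drawn independently (Poisson), without the blocks of counts seen here. That test therefore does not cover such blocks. Every lysosomal gene with a count in either library was named with both counts and those without by symbol, as were up to 4 genes of each pathway list and up to 2 of the main marker lists, by counts over both libraries. A gene of the pathway lists is not reported here. Genes and lists were chosen with earlier results of these data known. Of the 49315 gene identifiers, 49056 and all 56 lysosomal ones were found in GENCODE M21 (GRCm38), whose build may differ from the authors'.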

Additional observations from a re-analysis of the deposited data

How the results depend on the processing

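Lower lysosomal genes numbered 27 to 31 under the other scalings, filters and fold, 24 with housekeeping scaling without Actb, 6 with intervals on estimated molecules and 3 with those and total counts. The settings without Actb, with molecules on total counts, and without the leading gene on TMM were added after the data were seen. Shares of called genes over all genes are given only for the main rule and for estimated molecules, both on TMM. Counts of lower and higher genes under other settings therefore cannot be set against genes in general. Higher genes numbered 2, or 3 with no filter beyond 1 count, 6 on total counts and with housekeeping scaling, 8 with the latter without Actb, 1 at 4-fold, and 0 on estimated molecules with either TMM or total counts. The median log2 ratio of −4.24 was −3.44 on total counts, −3.38 with housekeeping scaling, −3.58 with at least 200 counts, −3.07 with each 0 taken as 3 counts and −1.09 for genes counted in both libraries. The share ratios of all lysosomal genes, hydrolases, soluble cofactors, membrane proteins and pump were 0.267, 0.219, 0.302, 0.398 and 0.312 with TMM, and 0.277, 0.227, 0.313, 0.414 and 0.324 with DESeq2 size factors. By TPM they were 0.333, 0.323, 0.385, 0.251 and 0.384. With housekeeping scaling without Actb they were 0.762, 0.624, 0.862, 1.14 and 0.891. Without the member with most counts they were 0.494, 0.423, 1.43, 1.00 and 0.765 on total counts and 0.283, 0.242, 0.822, 0.573 and 0.438 with TMM. Without Psap the cofactor ratio thus lay above 1 on total counts only of this pair, and without Lamp1 the membrane protein ratio was at 1 on total counts and below it with TMM. Lamp2 turned from below 1 to 1.39 on total counts and 1.44 with housekeeping scaling. Leaving red cell genes out of the totals moved no share ratio beyond its interval. With 1 library per group, no library could be left out.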
